A study of Cyclotella cryptica with 27 samples.

Results

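The enzymes of central carbon metabolism were described in the diatom Cyclotella cryptica during an acute move from seawater to freshwater. The genes were chosen by words in their protein names, such as pyruvate, fructose, enolase, malate or isocitrate, with transporters, carriers and ubiquinone proteins left out. The rule gave 162 of 21250 genes in the count table, among 5810 genes that carry a protein name. It sorted genes by name only, but it was chosen with earlier results of these data known. Protein names were those of the closest UniProt entries, often from distant organisms, so words such as chloroplastic or mitochondrial in them do not locate the diatom protein. Roles were given by enzyme name after values had been seen. By role, 32 genes belonged to glycolysis and gluconeogenesis and 29 to the conversions of pyruvate and phosphoenolpyruvate. A further 23 belonged to the citric acid and glyoxylate cycles and 6 to the Calvin cycle and fructose bisphosphatases. These 90 are called the pathway enzymes here. In all counts by role the 4 pyruvate kinase genes are among the 29, although the text describes them with glycolysis. The label did not cover the other 72 genes. Of these, 6 were plastid translocators of phosphoenolpyruvate, 7 were mutase-like proteins and 59 only shared a substrate word, such as prolyl hydroxylases, aminotransferases and argininosuccinate enzymes.

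Glycolysis splits hexose phosphates into pyruvate, gluconeogenesis runs the reversible steps backwards, and the citric acid cycle oxidises the acetyl groups made from pyruvate. Phosphoenolpyruvate and pyruvate form the node where carbon enters the citric acid cycle, leaves it for sugar synthesis or is carboxylated to oxaloacetate. Diatoms fix carbon by the Calvin cycle in the plastid, store it as a soluble beta-glucan in the vacuole and keep several isozymes of most glycolytic steps in cytosol, plastid and mitochondrion.

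Polyadenylated RNA of strain CCMP332, a euryhaline centric diatom, was sequenced from a seawater control at a salinity of 24 ppt and from cultures sampled between 0 min and 10 h after transfer into freshwater at 0 ppt (0, 15 and 30 min, then 1, 2, 4, 8 and 10 h). All cultures had grown exponentially at 24 ppt and 15 °C in 16 h of light and 8 h of dark. The light level was 22 umol during growth and 20 umol during treatment for all groups. Cells reached freshwater by centrifugation (800 rcf for 3 min) and resuspension. The labels give 3 replicates for each of the 9 groups, but say nothing of separate cultures, so p-values measure the spread between these samples, which may be technical. No later seawater culture was analysed here, so time in freshwater and time since transfer cannot be told apart, nor can the handling from the freshwater at 0 min.

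Most deposited replicate columns depended on each other. In the seawater control, the counts of replicates 1 and 2 differed by 7, within 1 count, for 99.95% of genes with at least 100 counts. At 0 min the difference was 11 for 99.95% and at 1 h it was 27 for 94.45%, within the same tolerance. At 30 min, 2 h, 4 h and 8 h, 1 replicate could be had by averaging the other 2, within 1 count, for 99.95% to 99.96% of genes, and at 15 min replicate 2 followed from the others with weights of 0.655 and 0.333. The results therefore rest on 16 columns, with n = 1 for the seawater control (replicate 1), 0 min (2) and 1 h (2), n = 2 for 15 min (1 and 3), 30 min (2 and 3), 2 h (1 and 3), 4 h (2 and 3) and 8 h (2 and 3), and n = 3 for 10 h. Groups with 1 column have no replicate of their own and were assumed to vary like the others. These columns held 2809130 to 6889349 gene counts, of which the chosen genes took 1.64% to 2.56%. Of 27 genes named for fucoxanthin light-harvesting proteins or silicon, which mark a diatom, 21 had at least 10 counts in every column used.

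After a filter on low counts, 161 of the 162 genes were tested among 12501 genes; the other one, CCRYP_010681, had at most 6 counts in a column. The median total over the 16 columns was 3430 counts for the tested members and 1755 for all tested genes, so the members were counted more deeply than most. A gene was called at an adjusted p below 0.05, and every adjusted p in the text is from the quasi-likelihood F test of edgeR, adjusted by the Benjamini-Hochberg method over all 12501 genes. Levels are CPM, counts divided by the TMM-scaled library total, and they are compared between columns of 1 gene, never between genes, since gene lengths were not used.

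Across the 9 groups, 99 of 161 members differed, against 40.9% of all tested genes. The share was 67.8% for the 90 pathway enzymes, of which 61 differed. By role these were 23 of 32 in glycolysis, 20 of 29 around pyruvate, 15 of 23 in the citric acid and glyoxylate cycles and 3 of 6 in the Calvin cycle. Of the 66 remaining genes outside the translocators, 65 were tested and 37 differed.

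Most calls fell at 30 min and 1 h. As RNA was taken from whole cultures, fewer cells of a state and less RNA per cell cannot be told apart. At 30 min 74 members were called against the seawater control, 32 higher and 42 lower, where the rates over all genes were 30.7%, or 14.0% higher and 16.7% lower. At 1 h the members called numbered 51, with 38 higher and 13 lower, against 18.4% of all genes, 9.79% higher and 8.61% lower. Glycolysis held 13 of the higher and 5 of the lower genes at 1 h, the pyruvate enzymes 6 and 3, and the citric acid and glyoxylate cycles 5 and 0. At 2 h 13 members were called, 10 higher and 3 lower, against 4.89% of all genes, 2.94% higher and 1.95% lower. At 4 h there were 15, 13 higher and 2 lower, against 3.77%, 2.70% and 1.07%. At 10 h 7 were higher and 9 lower, 16 in all, against 8.33%, 4.69% and 3.64%. At 0 min, 15 min and 8 h edgeR called 0 members, where 0%, 0.0880% and 0.0240% of all genes were called. In those comparisons 19, 18 and 14 members had an unadjusted p below 0.05, and DESeq2 called 1, 2 and 0. Rates over all genes are not given for these counts, so they do not set the members apart from other genes.

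The scaling set the balance of directions at some times. With library size only, the split at 30 min was 46 higher and 22 lower, and at 10 h it was 7 and 2 in place of 7 and 9. At 2 h it was 10 and 3 with TMM and 9 and 5 with DESeq2 size factors. Against TMM, library size only moved the all-gene median of the log2 fold change from 0.085 to 0.342 at 30 min, from 0.046 to 0.171 at 1 h, from -0.062 to 0.118 at 8 h and from -0.040 to 0.108 at 10 h. Under all 3 scalings 38 of 38 remained higher at 1 h and 30 of 32 at 30 min, and 9 of 13 and 22 of 42 remained lower; library size only moves all genes upward at these times, which favours higher calls. In every fit without a column, 32 of 38 higher and 12 of 13 lower calls remained at 1 h, and 19 of 32 and 16 of 42 at 30 min. Neither the control nor the 1 h group could lose its single column, so at 1 h those fits did not test the 2 columns compared. They are no sign that the 1 h calls are firmer than those at 30 min. DESeq2 also called 32 of the 38 and 13 of the 13 at 1 h. The 0 min column gave a stricter contrast. Of the members called against the seawater control, 23 of 38 higher but 0 of 13 lower at 1 h were also called against 0 min, and 18 of 32 higher but 2 of 42 lower at 30 min. Only 50 of the 161 members lay above the seawater control at 0 min, so most lower calls were made against the single control column only. Without replicate 2 at 30 min the count at 30 min fell from 74 to 40. At 2 h it was 7 without replicate 1 at 2 h and 20 without either 4 h column, at 4 h 33 without replicate 3, and at 10 h 4, 6 and 27 without replicates 1, 2 and 3.

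**Figure D1:**
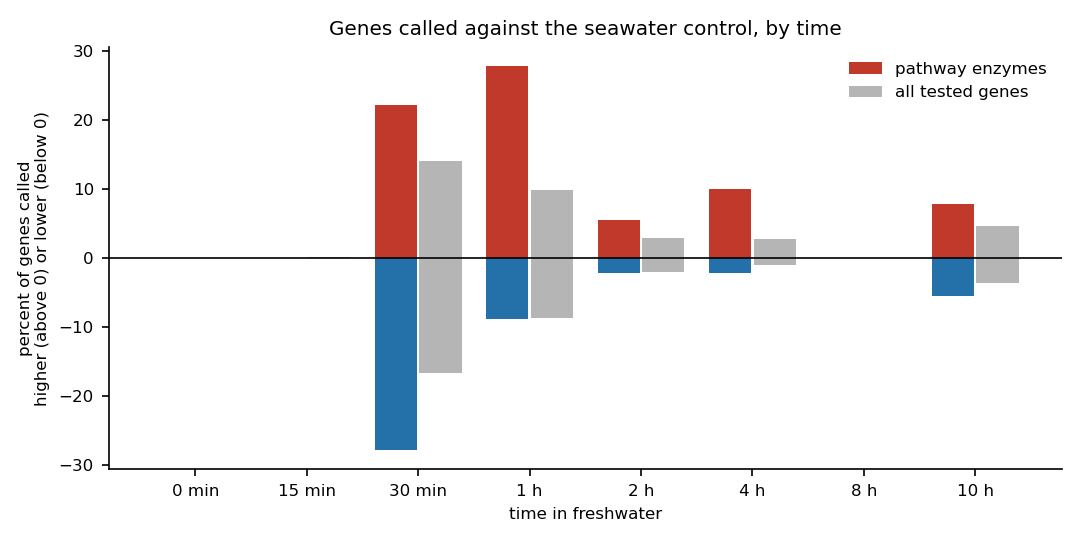
Percent of the 90 pathway enzymes (red higher, blue lower) and of all 12501 tested genes (grey) called against the seawater control at each time in freshwater (edgeR, TMM scaling). At 1 h the red bar stands for 25 of the 90 enzymes and the blue one for 8, and at 0 min, 15 min and 8 h none of them was called.

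The sharpest response in glycolysis was that of a set of isozymes that peaked at 30 min and 1 h and was mostly near or below the control level from 4 h. Glyceraldehyde-3-phosphate dehydrogenase (GAPDH) catalyses the oxidative step of glycolysis, and 2 of its 6 genes, CCRYP_005174 and CCRYP_005175, led this set. CCRYP_005174 stood at 35.9 CPM in the control, 25.5 at 0 min, 31.7 and 65.5 at 15 min, 181 and 135 at 30 min, 246 at 1 h, 56.8 and 105 at 2 h, 21.3 and 24.2 at 4 h, 19.2 and 21 at 8 h, and 17.3, 22.3 and 20.8 at 10 h. All columns of 30 min and 1 h lay above all others, and all columns from 4 h on lay below the control. Its log2 fold change over the control was 2.78 ± 0.43 (SE) at 1 h (edgeR adjusted p 0.000766), and 30 min and 1 h exceeded 8 h and 10 h by 3.29 ± 0.22 (adjusted p 6.68e-09). For CCRYP_005175 these log2 values were 1.69 ± 0.33 (edgeR adjusted p 0.00153) and 2.37 ± 0.17 (adjusted p 8.3e-11). The pair has consecutive gene IDs and the same UniProt match, so reads shared between copies could blur their separate counts.

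Pyruvate kinase makes pyruvate and ATP in the last step of glycolysis and is counted here with the pyruvate enzymes. Its gene CCRYP_018508 was at 24.8 CPM in the control, 37.2 at 0 min, 22.1 and 35.1 at 15 min, 88.9 and 70.2 at 30 min, 109 at 1 h, 43.6 and 43.7 at 2 h, 18.8 and 20.1 at 4 h, 20.5 and 14.4 at 8 h, and 20.8, 18.4 and 19.7 at 10 h. The 3 columns of 30 min and 1 h stood apart, 2 h was intermediate, and every later column was below the control. The log2 fold change at 1 h was 2.13 ± 0.31 (edgeR adjusted p 0.000151). CCRYP_018509, an enolase, which makes phosphoenolpyruvate, rose by 1.65 ± 0.35 on the log2 scale at 1 h (edgeR adjusted p 0.00402). The pyrophosphate-dependent phosphofructokinase CCRYP_004897 phosphorylates fructose 6-phosphate with pyrophosphate in place of ATP. It went from 13.9 CPM in the control and 9.85 at 0 min to 73.3 and 40.8 at 30 min and 69.1 at 1 h, and its 8 h and 10 h columns were between 9.18 and 15.1. The 15 min columns held 12.4 and 27.8 CPM, so replicate 1 was still below the control and replicate 3 above it. At 1 h its log2 fold change was 2.31 ± 0.50 (edgeR adjusted p 0.0056).

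Further steps had a member whose highest columns were those of 30 min and 1 h. The phosphoglycerate kinases CCRYP_006391 and CCRYP_010246, which form ATP and 3-phosphoglycerate, had log2 fold changes of 1.63 ± 0.42 and 1.40 ± 0.38 at 1 h (edgeR adjusted p 0.0157 and 0.0131). Among the phosphoglycerate mutases, which move the phosphate to the neighbouring carbon, CCRYP_018780 had 1.1 ± 0.36 (edgeR adjusted p 0.0341). CCRYP_006763, another mutase, had the high value of 2.22 ± 0.57 at 1 h (edgeR adjusted p 0.0104), but it rests on 11 counts in the control, and against 0 min it was 1.07 (adjusted p 0.234). The aldolase CCRYP_018515, which cleaves fructose 1,6-bisphosphate, exceeded its 8 h and 10 h level at 30 min and 1 h by 0.61 ± 0.16 (edgeR adjusted p 0.00449). For the triosephosphate isomerase CCRYP_014365 this difference was 1.17 ± 0.22 (edgeR adjusted p 0.000258), although it was not called against the control. CCRYP_006391, CCRYP_018780 and CCRYP_014365 were near or below the control from 4 h, but the others were not. CCRYP_006763 had 3.32 CPM in the control and 12.3 and 8.56 at 4 h. At 8 h CCRYP_018515 had 225 and 159 CPM over a control of 143, and CCRYP_010246 had 27.2 and 24.0 over 18.4.

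Other isozymes of the same steps went the other way. The aldolase CCRYP_007283 was at 885 CPM in the control, 620 at 0 min, 604 and 562 at 15 min, 307 and 435 at 30 min, 378 at 1 h, 415 and 590 at 2 h, 440 and 636 at 4 h, 684 and 760 at 8 h, and 414, 437 and 540 at 10 h. The control column was the highest, and 30 min and 1 h were lowest together with part of 2 h and 10 h. At 30 min the log2 fold change was -1.26 ± 0.26 (edgeR adjusted p 0.00138). The second pyrophosphate-dependent phosphofructokinase, CCRYP_011751, had 81.8 CPM in the control, 66.5 at 0 min, 57.8 and 52.4 at 15 min, 36.7 and 39.1 at 30 min, 38.3 at 1 h, 37.8 and 49.1 at 2 h, 36.4 and 51.0 at 4 h, 72.1 and 82.6 at 8 h, and 54.7, 51.1 and 65.9 at 10 h. Its columns from 30 min to 4 h lay below all those of the control, 0 min, 15 min, 8 h and 10 h, with 51.0 at 4 h just under the 51.1 of 10 h. It fell by -1.11 ± 0.23 at 30 min on the log2 scale (edgeR adjusted p 0.00148), and it was 1 of the 2 members lower at 30 min also against 0 min.

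Mutase CCRYP_001534 had a log2 fold change of -1.15 ± 0.22 at 30 min (edgeR adjusted p 0.00105) and CCRYP_009306 one of -0.89 ± 0.20 (adjusted p 0.00282). Neither was called against 0 min, and the call of CCRYP_009306 was lost without replicate 2 at 30 min (-0.707, edgeR adjusted p 0.0549). In a contrast that uses neither the control nor 0 min, 30 min and 1 h against 8 h and 10 h, CCRYP_011751 was lower by -0.81 ± 0.16, CCRYP_001534 by -0.76 ± 0.15, CCRYP_004373, a triosephosphate isomerase, by -0.69 ± 0.15, CCRYP_006686, a pyruvate kinase, by -0.65 ± 0.17 and CCRYP_007283 by -0.63 ± 0.17 (edgeR adjusted p 0.000213, 0.000248, 0.000789, 0.00494 and 0.00502). Thus aldolase, pyrophosphate-dependent phosphofructokinase, phosphoglycerate mutase, pyruvate kinase and triosephosphate isomerase each had a member called higher and a member called lower in this contrast. GAPDH CCRYP_002945 and the fused phosphoglycerate kinase and triosephosphate isomerase CCRYP_012738, the most counted glycolytic gene called in no comparison, had log2 fold changes of -0.12 and -0.55 at 1 h.

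**Figure D2:**
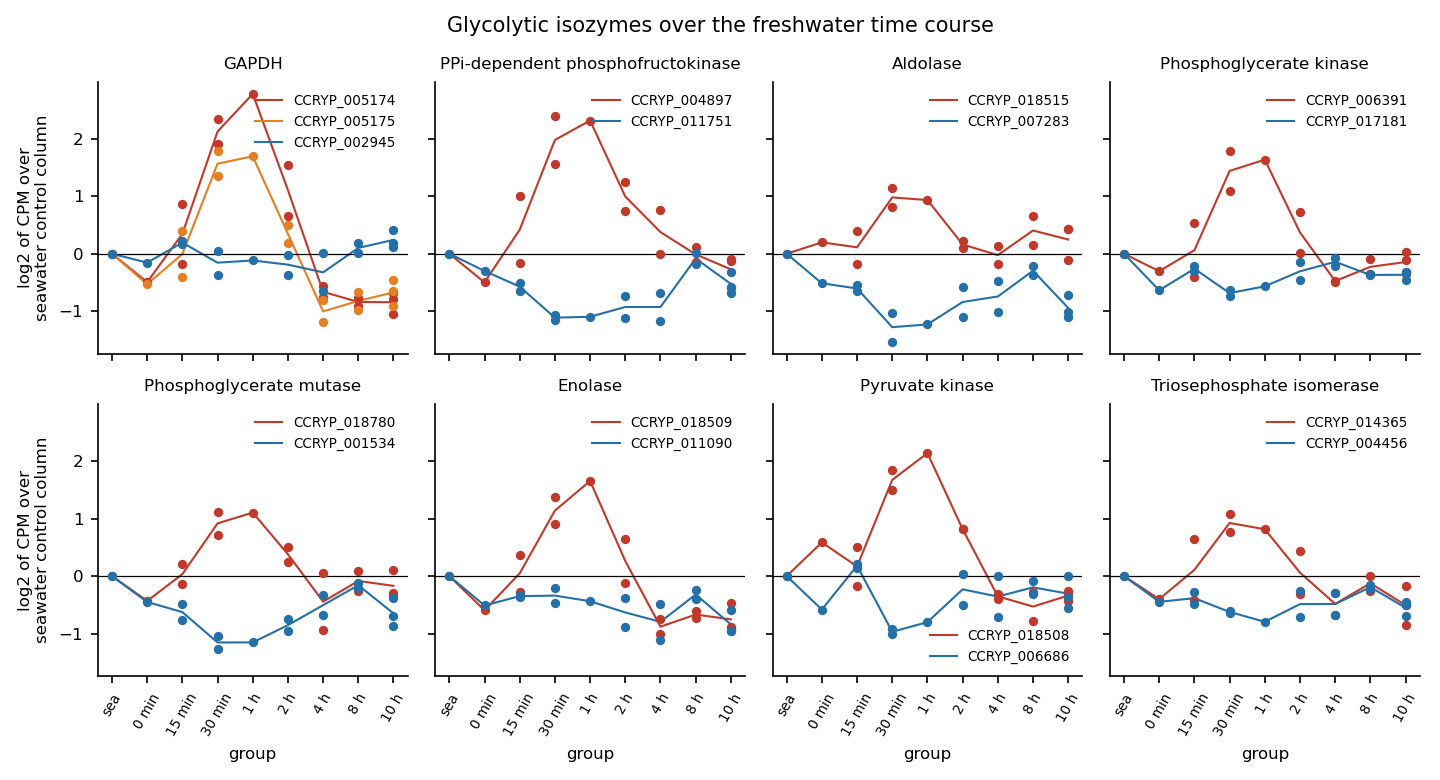
Log2 ratio of CPM to the seawater control column for members of 8 glycolytic enzymes across the 9 groups; points are single columns and lines join group means. Red and orange members peak at 30 min and 1 h (CCRYP_005174 reaches 246 CPM from 35.9), while blue members fall or stay near the control (CCRYP_007283 drops from 885 to 307 and 435 CPM at 30 min).

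The contrast of 30 min and 1 h with 8 h and 10 h had 3 columns on the early and 5 on the late side and no single control column. It called 81 members, 46 higher early and 35 lower, against 39.6% of all genes, 21.2% higher and 18.4% lower. Glycolysis had 15 higher and 7 lower of 32, the citric acid and glyoxylate cycles 10 and 1 of 23, the pyruvate enzymes 6 and 10 of 29, and the Calvin cycle 1 and 0 of 6. None of the 6 translocators was called. Of the 46 higher members 43 remained under all 3 scalings and 40 in every fit that left out a column, and of the 35 lower ones 31 and 24.

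**Figure D3:**
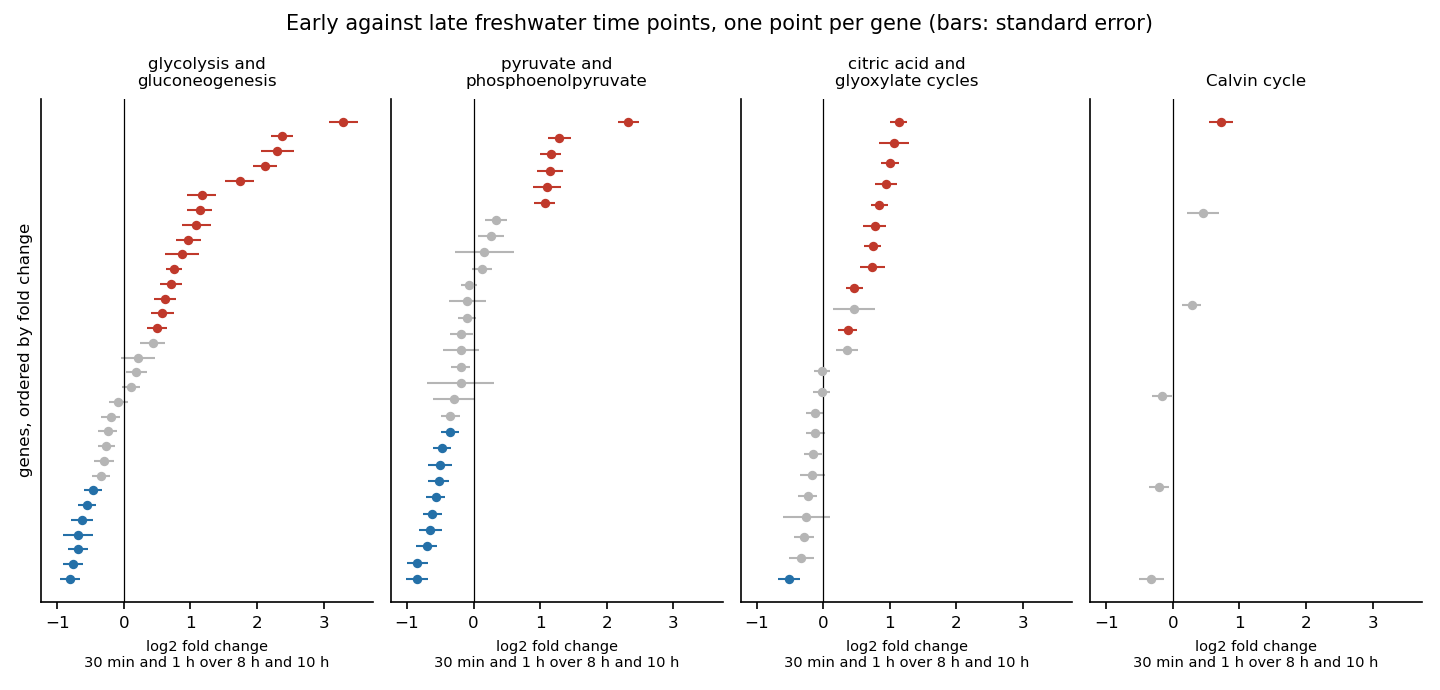
Log2 fold change (± SE) of each pathway enzyme in 30 min and 1 h over 8 h and 10 h, by role; red and blue points are called higher and lower, grey points are not called. Glycolysis spans from 3.29 for CCRYP_005174 to -0.81 for CCRYP_011751, and in the citric acid and glyoxylate cycles 10 genes are called above and 1 below 0.

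A second course was seen in part of the pyruvate and phosphoenolpyruvate enzymes and in some other members. These genes were low at 30 min, peaked at 2 h and 4 h and were low again at 8 h. The comparisons of 30 min with 4 h and 4 h with 8 h, and the genes of this course other than CCRYP_012039 and CCRYP_010390, were chosen after their values had been seen. Pyruvate dehydrogenase, which turns pyruvate into acetyl-CoA, has an E1 alpha subunit whose gene CCRYP_012039 held 28.7 CPM in the control, 22.2 at 0 min, 78.9 and 74.4 at 15 min, 28.8 and 11.9 at 30 min, 106 at 1 h, 141 and 178 at 2 h, 157 and 213 at 4 h, 23.1 and 25.2 at 8 h, and 61.7, 65.3 and 72.3 at 10 h. The 15 min columns were above the control, 30 min was at or below it, 1 h to 4 h were the highest, 8 h was below the control, and 10 h was above it again. At 4 h its log2 fold change over the control was 2.69 ± 0.35 (edgeR adjusted p 0.000128). From 30 min to 4 h the log2 difference was 3.10 ± 0.26 and from 4 h to 8 h it was -2.94 ± 0.27 (edgeR adjusted p 3.28e-08 and 4.64e-07).

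Pyruvate carboxylase adds carbon dioxide to pyruvate to refill oxaloacetate. Its gene CCRYP_010390 was at 368 CPM in the control, 268 at 0 min, 804 and 678 at 15 min, 324 and 178 at 30 min, 750 at 1 h, 1007 and 1259 at 2 h, 1160 and 1486 at 4 h, 333 and 347 at 8 h, and 667, 682 and 803 at 10 h. Its 2 h and 4 h columns were the highest of all, and 30 min, 8 h, 0 min and the control lay below every other column. The log2 fold change was 1.84 ± 0.30 at 4 h over the control (edgeR adjusted p 0.000753) and -1.96 ± 0.23 from 4 h to 8 h (adjusted p 4.66e-06). The other 2 pyruvate carboxylase genes, CCRYP_010356 and CCRYP_010552, were lower than the control at 30 min by -1.11 ± 0.24 and -0.84 ± 0.20 on the log2 scale (edgeR adjusted p 0.00217 and 0.00332) and were not called at 4 h over the control. CCRYP_010552 had a like but smaller course, with its lowest columns at 30 min (115 and 115 CPM) and its highest at 4 h (243 and 263 CPM). CCRYP_010356 and CCRYP_010390 have the same UniProt match, so shared reads could blur their separate counts.

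Pyruvate phosphate dikinase converts pyruvate into phosphoenolpyruvate for gluconeogenesis. CCRYP_020923, its gene, held 327 CPM in the control, 225 at 0 min, 404 and 335 at 15 min, 151 and 153 at 30 min, 446 at 1 h, 725 and 691 at 2 h, 776 and 919 at 4 h, 293 and 298 at 8 h, and 348, 361 and 415 at 10 h. The 30 min columns were the lowest of all and the 2 h and 4 h columns the highest. The log2 difference from 30 min to 4 h was 2.48 ± 0.19 (edgeR adjusted p 6.26e-10) and that of 4 h over the control 1.37 ± 0.23 (adjusted p 0.001). The related phosphoenolpyruvate synthase CCRYP_018224 changed by 1.79 ± 0.19 from 30 min to 4 h (edgeR adjusted p 1.14e-07). For the pyrophosphate-type phosphoenolpyruvate carboxykinase CCRYP_017838, which makes phosphoenolpyruvate from oxaloacetate, the difference was 1.97 ± 0.20 (edgeR adjusted p 7.55e-08); its fall from 4 h to 8 h was lost without either 8 h column (adjusted p 0.106 and 0.104).

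Routes from pyruvate to acetyl-CoA other than the dehydrogenase complex followed. Pyruvate:NADP oxidoreductase, known from oxygen-poor mitochondria of Euglena, was represented by CCRYP_018870, with 281 CPM in the control, 151 and 128 at 30 min, 705 and 842 at 4 h, and 296 and 312 at 8 h. The groups did not overlap between 30 min and 4 h or between 4 h and 8 h, and the log2 differences were 2.47 ± 0.18 and -1.35 ± 0.18 (edgeR adjusted p 6.26e-10 and 2.08e-05). Pyruvate formate-lyase, a fermentation enzyme of bacteria and some algae, was represented by CCRYP_013997. It rose by 1.84 ± 0.21 from 30 min to 4 h (edgeR adjusted p 4.95e-07), but its 4 h value of 0.87 over the control was not called. The class 1 aldolase CCRYP_014948 belongs to glycolysis by name and had the course of this group, with 1.82 ± 0.18 from 30 min to 4 h (edgeR adjusted p 3.4e-08). The 4 h to 8 h call of CCRYP_013997 was lost without replicate 2 at 8 h (adjusted p 0.173).

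In all, 18 of the 29 pyruvate enzymes were called from 30 min to 4 h, 12 higher and 6 lower at 4 h, against 26.2% of all genes, 12.6% higher and 13.7% lower. Of the 65 tested genes outside the pathway enzymes and translocators 22 were higher and 11 lower, so the rise was not limited to the pyruvate enzymes. The members together had 44 higher and 41 lower, or 31 and 53 with library size only, which left the pyruvate enzymes at 9 and 7. Without replicate 2 at 30 min 56 members were called. From 15 min to 30 min 2 pyruvate enzymes were called higher and 13 lower, where 10.7% of all genes were higher and 13.5% lower, and glycolysis had 11 higher and 6 lower. The split over all members was 23 higher and 45 lower with TMM and 48 and 23 with library size only, which left the pyruvate enzymes at 6 higher and 9 lower. Without replicate 1 at 15 min, 24 members were called from 15 to 30 min, and without replicate 2 at 30 min 34. From 4 h to 8 h 19 members were called, 2 higher and 17 lower, against 3.34% of all genes, 0.528% higher and 2.81% lower, and 7 of the lower ones were pyruvate enzymes. Library size only gave 4 and 12, and 8 or 9 members were called without replicate 2 or 3 at 8 h. The columns of 30 min held 6889349 and 3523804 gene counts, with 20.9% and 33% of reads in the uncounted summary rows, and the part of this in the low values at 30 min was not tested.

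**Figure D4:**
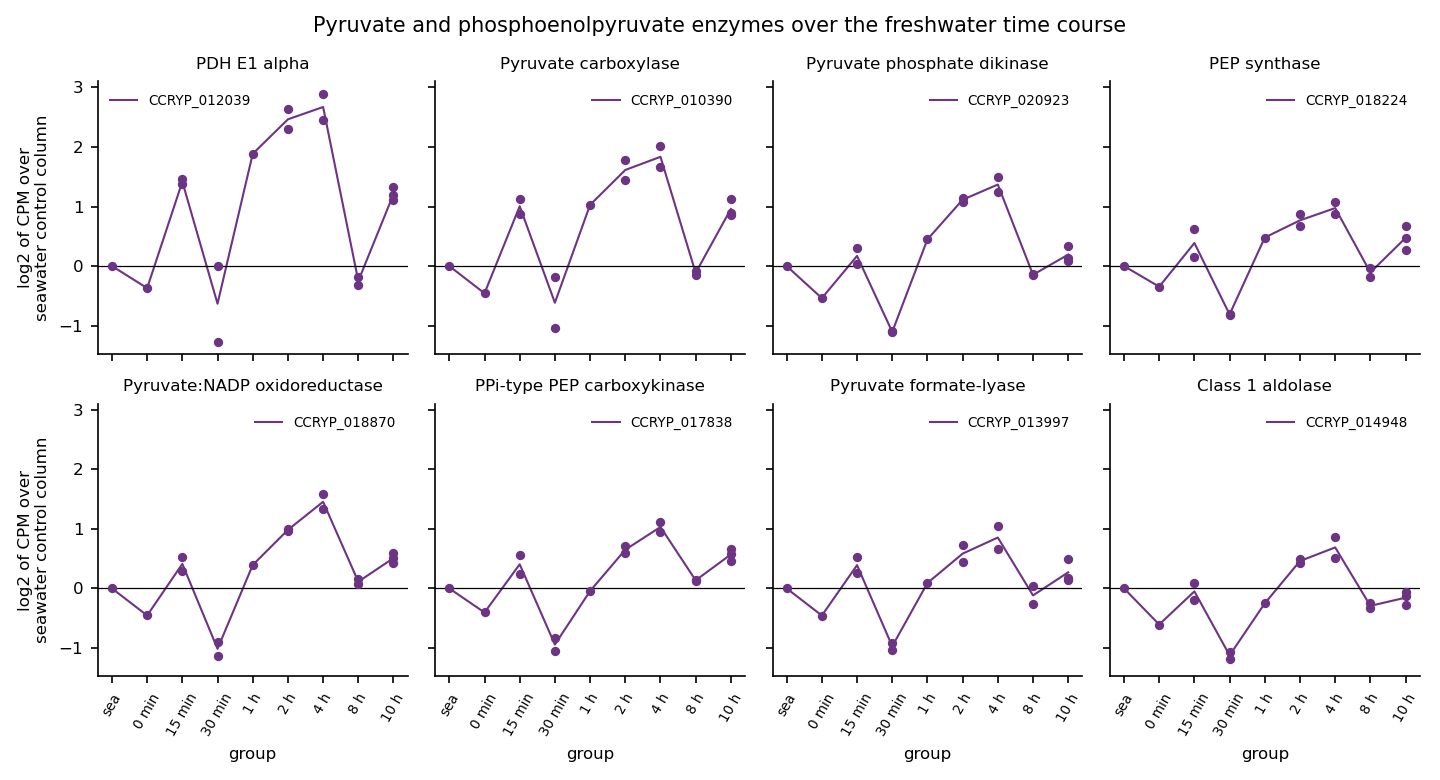
Log2 ratio of CPM to the seawater control column for 8 enzymes around pyruvate across the 9 groups; points are single columns and lines join group means. In all 8 the group mean is lowest at 30 min and highest at 4 h, and all drop from 4 h to 8 h (CCRYP_012039 from 157 and 213 to 23.1 and 25.2 CPM). Genes other than CCRYP_012039 and CCRYP_010390 were chosen after their values had been seen, so their shared course follows from the choice.

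Of the 11 genes named for the pyruvate dehydrogenase complex, only part are described here, and the other subunits among these did not share the course of E1 alpha. E1 beta, the partner of E1 alpha in the same component, was represented by CCRYP_011180 with 17.2 CPM in the control, 65.5 and 42.4 at 30 min, 56.9 at 1 h, 17.3 and 30.5 at 4 h, and 23.9 and 21 at 8 h. Its 30 min and 1 h columns were the highest, with replicate 3 of 15 min just under them at 42. The log2 fold change was 1.72 ± 0.40 at 1 h (edgeR adjusted p 0.00654) and from 30 min to 4 h it was -1.21 ± 0.27 (adjusted p 0.00178), opposite in sign to E1 alpha. That second call was lost without replicate 2 at 30 min (adjusted p 0.0659) or replicate 2 at 4 h (adjusted p 0.0503). The E2 acetyltransferase genes CCRYP_009984, CCRYP_009958 and CCRYP_007383 were higher at 30 min and 1 h than at 8 h and 10 h by 1.16 ± 0.15, 1.11 ± 0.21 and 1.07 ± 0.15 on the log2 scale (edgeR adjusted p 1.68e-06, 0.000306 and 4.72e-06). The E3 dihydrolipoyl dehydrogenase CCRYP_020733 was lower by -0.70 ± 0.16 in the same contrast (edgeR adjusted p 0.00101). Pyruvate dehydrogenase kinase switches the complex off by phosphorylating E1. Its gene CCRYP_009025 rose by 1.76 ± 0.35 at 1 h (edgeR adjusted p 0.00209), or 0.875 against 0 min (adjusted p 0.126). The kinase gene CCRYP_014049 stayed between 143 and 191 CPM in all 16 columns and was called in no comparison.

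Phosphoenolpyruvate carboxylase, which makes oxaloacetate from phosphoenolpyruvate and bicarbonate, had 2 genes with different courses. CCRYP_003522 was lower than the control at 1 h by -0.93 ± 0.26 on the log2 scale (edgeR adjusted p 0.0178), and CCRYP_006412 was higher by 0.80 ± 0.26 at 1 h and 0.99 ± 0.22 at 10 h (adjusted p 0.0342 and 0.0108). CCRYP_006412 had 49.5 CPM in the control but 87.4 at 0 min and 92.5, 100 and 101 at 10 h. The rise thus depends on the control column, and neither gene was called against 0 min. Among the plastid translocators that exchange phosphoenolpyruvate for phosphate, CCRYP_001192 and CCRYP_007614 were lower at 30 min by -1.11 ± 0.29 and -0.92 ± 0.25 (edgeR adjusted p 0.00652 and 0.0081), but not against 0 min, and both calls were lost without replicate 2 at 30 min (adjusted p 0.102 and 0.0723). The other 4 translocators were not called at any time against the control.

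At 30 min 6 of the 23 citric acid and glyoxylate cycle genes were called, 4 higher and 2 lower (14.0% and 16.7% over all genes). With library size only, which moves all genes upward at this time, 11 were higher and 2 lower. At 1 h 5 were higher and 0 lower (9.79% and 8.61% over all genes). Several steps had no called gene, and both malate dehydrogenases described after fumarase were lower at 30 min. Aconitase, which isomerises citrate, was represented by CCRYP_010561 with 88.8 CPM in the control, 72.0 at 0 min, 85.3 and 91.7 at 15 min, 137 and 99.9 at 30 min, 224 at 1 h, 103 and 112 at 2 h, 68.2 and 82.6 at 4 h, 74.9 and 77.5 at 8 h, and 64.7, 74.2 and 79.3 at 10 h. The 1 h column was the highest by a wide margin, and all columns from 4 h on were below the control. At 1 h the log2 fold change was 1.33 ± 0.25 (edgeR adjusted p 0.00134). Citrate synthase, the entry step, was represented by CCRYP_015541 and went from 141 CPM in the control to 315 and 280 at 30 min and 288 at 1 h, and was at 143 and 132 at 8 h. The change on the log2 scale was 1.08 ± 0.24 at 30 min (edgeR adjusted p 0.00217).

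The following steps were called in the contrast of 30 min and 1 h with 8 h and 10 h. On the log2 scale the differences were 0.74 ± 0.13 for isocitrate dehydrogenase CCRYP_012225, 1.07 ± 0.22 for the E2 subunit of 2-oxoglutarate dehydrogenase CCRYP_008601, and 0.74 ± 0.18 and 0.77 ± 0.17 for the succinate-CoA ligase subunits CCRYP_002720 and CCRYP_016869 (edgeR adjusted p 5.48e-05, 0.000651, 0.00263 and 0.00098). For the malate dehydrogenase CCRYP_007197 it was 0.94 ± 0.17 (edgeR adjusted p 7.7e-05). The E1 subunit of 2-oxoglutarate dehydrogenase, CCRYP_020891, had -0.02 in this contrast, and the succinate dehydrogenase genes CCRYP_005910 and CCRYP_016604, the latter an assembly factor, had 0.36 and 0.46 without a call. The 3 fumarate reductase genes were not called either.

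Fumarase, which hydrates fumarate to malate, was called higher than the control at 30 min, 1 h, 2 h, 4 h and 10 h. Its gene CCRYP_018362 held 21.7 CPM in the control, 49.5 at 0 min, 28.4 and 34.7 at 15 min, 51.9 and 49.1 at 30 min, 62.0 at 1 h, 43.6 and 53.5 at 2 h, 57.7 and 45.0 at 4 h, 39.0 and 38.7 at 8 h, and 49.8, 52.5 and 44.2 at 10 h. Every freshwater column was above the control, and the 0 min column lay between those of 30 min. The 4 h call was lost without replicate 2 at 4 h (edgeR adjusted p 0.0815). Its log2 fold change was 1.51 ± 0.29 at 1 h (edgeR adjusted p 0.00149), but with 0 min as the baseline it was 0.323 (adjusted p 0.542). A change within the 0 min handling and an unusual control column cannot be told apart. The malate dehydrogenases CCRYP_002104 and CCRYP_013611, which share a UniProt match, had the course of the pyruvate enzymes and rose by 1.61 ± 0.20 and 1.78 ± 0.25 from 30 min to 4 h (edgeR adjusted p 1.3e-06 and 1.45e-05).

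Isocitrate lyase and malate synthase form the glyoxylate cycle, a bypass that saves carbon from acetyl-CoA. The lyase CCRYP_013789 had 50.7 CPM in the control, 45.9 and 44.7 at 30 min, 87.3 and 102 at 4 h, and 54.6 and 68.2 at 8 h. Its 4 h columns were the highest of all 16 and its 30 min columns the lowest. Its 4 h log2 fold change was 0.90 ± 0.23 over the control (edgeR adjusted p 0.0277) and was not called against 0 min. Both cycle enzymes rose from 30 min to 4 h, by 1.06 ± 0.18 for the lyase and 1.05 ± 0.21 for the synthase CCRYP_008996 (edgeR adjusted p 6.95e-05 and 0.000536). The call of the synthase was lost without replicate 2 at 30 min (adjusted p 0.0607). It was also the 1 gene of these cycles lower in 30 min and 1 h against 8 h and 10 h, by -0.51 ± 0.17 (edgeR adjusted p 0.0162), which was lost without replicate 2 at 30 min (adjusted p 0.137) or at 8 h (adjusted p 0.0512).

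**Figure D5:**
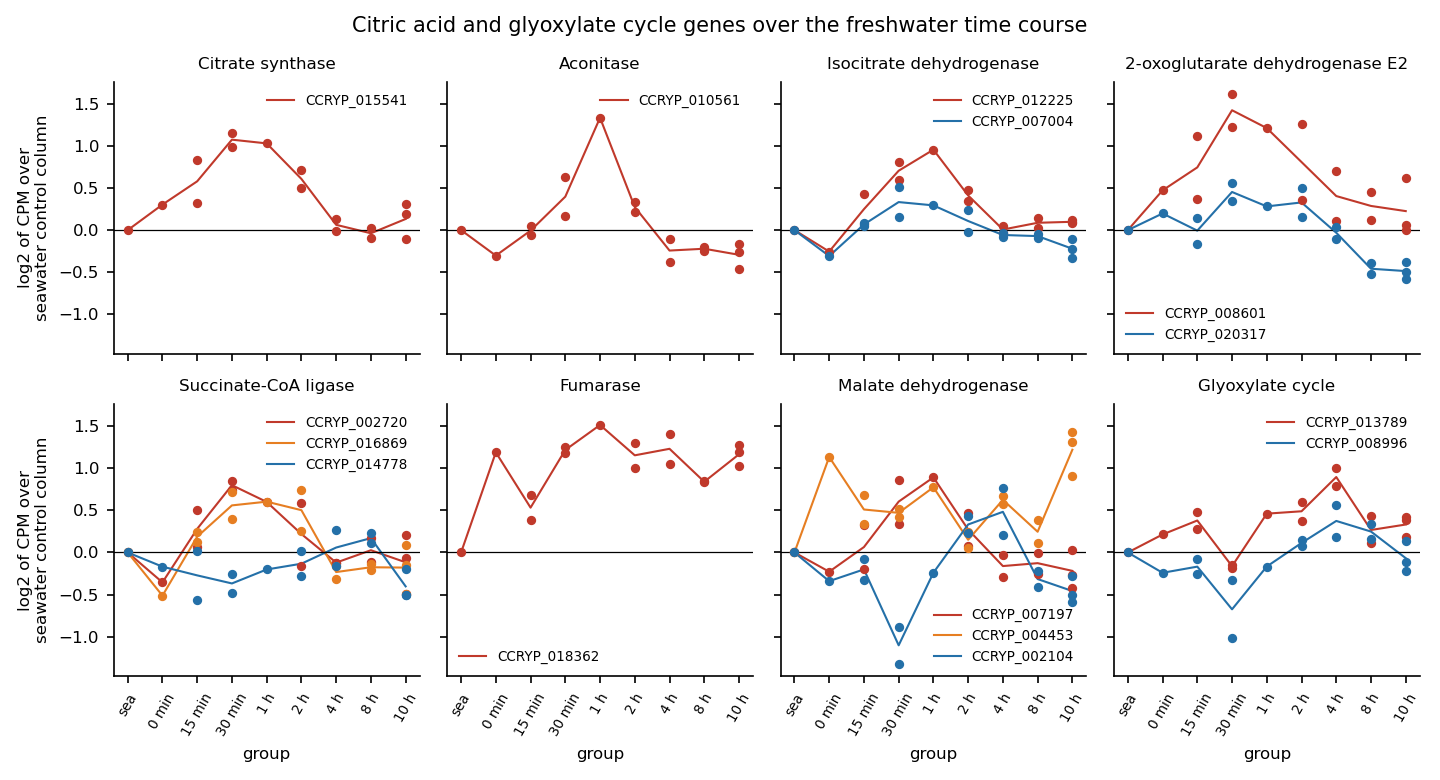
Log2 ratio of CPM to the seawater control column for citric acid and glyoxylate cycle genes across the 9 groups; points are single columns and lines join group means. Citrate synthase and aconitase peak at 30 min or 1 h (224 CPM for aconitase), fumarase is above the control in every freshwater column, and in the last panel isocitrate lyase (red) is highest at 4 h and malate synthase is blue.

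Of the 6 Calvin cycle and fructose bisphosphatase genes, 3 differed among the groups (40.9% over all genes), and 1 was called higher and 1 lower than the control at 30 min. CCRYP_007284, named as a cytosolic fructose-1,6-bisphosphatase, an enzyme of gluconeogenesis, had 9.96 CPM in the control, 24.0 at 0 min, 10.6 and 10.0 at 15 min, 29.4 and 23 at 30 min, 32.9 at 1 h, 16.6 and 13.7 at 2 h, 17.3 and 16.0 at 4 h, 18 and 12.9 at 8 h, and 22.5, 22.0 and 17.9 at 10 h. The 1 h and 30 min columns were among the highest, but the 0 min column lay above 1 of the 30 min columns. The log2 fold change at 1 h was 1.72 ± 0.37 (edgeR adjusted p 0.00364), and neither the 30 min nor the 1 h call was made against 0 min. Phosphoribulokinase CCRYP_011746, which regenerates the acceptor of carbon dioxide, was lower at 4 h by -0.88 ± 0.23 (edgeR adjusted p 0.0344). It had 313 CPM in the control, 225 at 0 min and 143 and 198 at 4 h, and was not called at 4 h against 0 min. Without replicate 2 at 4 h its value was -0.663 (adjusted p 0.300). CCRYP_018554, named fructose-1,6-bisphosphatase class 1, differed among the groups (edgeR adjusted p 0.0022) with 538 CPM at 0 min against 249 in the control, and was called against the control at no time. The 2 replicates of 2 h, 478 and 240 CPM, differed as widely. Sedoheptulose-1,7-bisphosphatase CCRYP_004211, bisphosphatase CCRYP_009282 and transketolase CCRYP_009959 were not called against the control at any time.

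Of the 65 tested genes outside the pathway enzymes and translocators, 12 were called higher and 15 lower at 30 min, and 13 and 5 at 1 h, where 9.79% of all genes were higher and 8.61% lower. The genes described from them were chosen for their large changes and stand for no pathway as a whole. Phosphoglycerate dehydrogenase draws 3-phosphoglycerate from glycolysis into serine synthesis. Its gene CCRYP_020254 had 4 counts in the control, 3 at 0 min, 25 and 22 at 15 min, 107 and 50 at 30 min, 41 at 1 h, 17 and 32 at 2 h, 9 and 6 at 4 h, 14 and 14 at 8 h, and 13, 8 and 34 at 10 h, before scaling. Control and 0 min were the lowest columns. The log2 fold change was 3.49 ± 0.73 at 1 h (edgeR adjusted p 0.00294), from a control of few counts. CCRYP_019760 and CCRYP_010740, named for the same enzyme, had 1.87 ± 0.44 and 1.70 ± 0.50 at 1 h (edgeR adjusted p 0.00654 and 0.0296). A further gene of that name, CCRYP_003564, had 0.43 without a call.

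Argininosuccinate synthase joins citrulline and aspartate on the way to arginine. CCRYP_019729 was at 45.3 CPM in the control, 33.2 at 0 min, 41.7 and 57.0 at 15 min, 113 and 122 at 30 min, 166 at 1 h, 61.8 and 87.8 at 2 h, and between 31.1 and 48.0 in all columns from 4 h to 10 h. The 3 columns of 30 min and 1 h lay above all others. The change on the log2 scale was 1.87 ± 0.30 at 1 h (edgeR adjusted p 0.000334). Argininosuccinate lyase CCRYP_012659 had 1.46 ± 0.31 and adenylosuccinate lyase CCRYP_008512, a purine enzyme, 1.74 ± 0.31 (edgeR adjusted p 0.00354 and 0.000749). Both lyases release fumarate. In 30 min and 1 h against 8 h and 10 h, CCRYP_008512 was higher by 2.34 ± 0.16 (edgeR adjusted p 4.05e-11), next after the GAPDH genes CCRYP_005174 and CCRYP_005175 among the called members.

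Other word-sharing genes had the course of the pyruvate enzymes. CCRYP_004064, named kynurenine/alpha-aminoadipate aminotransferase, rose by 1.96 ± 0.35 at 4 h over the control, and the putative prolyl 4-hydroxylase CCRYP_010032 by 1.42 ± 0.26 (edgeR adjusted p 0.00206 and 0.00268). CCRYP_013935, a glutamine-fructose-6-phosphate aminotransferase that starts amino sugar synthesis, had 5 counts in the control and 50 and 38 at 4 h. Its log2 fold change of 3.27 ± 0.78 (edgeR adjusted p 0.0203) was lost without replicate 2 at 4 h (adjusted p 0.0707). The alanine aminotransferase CCRYP_002724 and the pyruvate carboxylase CCRYP_010356 were the lowest called members in 30 min and 1 h, with the hydroxypyruvate reductase CCRYP_002260, by -0.87 ± 0.14, -0.85 ± 0.16 and -0.87 ± 0.29 against 8 h and 10 h (edgeR adjusted p 2.88e-05, 0.000214 and 0.0231). The call of CCRYP_002260 was lost without replicate 2 at 30 min (adjusted p 0.103) or replicate 2 at 8 h (adjusted p 0.141). The most counted members of these lists called in no comparison were the isopropylmalate dehydratase CCRYP_010243 and the lysyl hydroxylase CCRYP_014881.

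Genes of neighbouring pathways, 50 in number and all tested, were taken from a separate list of names. Over the 9 groups 28 differed, or 56%, against 40.9% of all genes. At 1 h 6 were higher and 11 lower than the control (9.79% and 8.61% of all genes), and at 30 min 5 and 14 (14.0% and 16.7%). The glucan genes, which build or break the storage and wall beta-glucans, had 0 higher and 7 lower of 16 at 30 min with TMM and 2 and 5 with library size only, and 2 higher and 7 lower in 30 min and 1 h against 8 h and 10 h under each of the 3 scalings (21.2% and 18.4% of all genes). The glucan median of the log2 fold change over the control was -0.512 at 0 min and -0.533 at 30 min with TMM, so it was already low at 0 min. The hexose phosphate genes showed the isozyme split of glycolysis. The glucose-6-phosphate isomerases CCRYP_014255 and CCRYP_019158, which feed fructose 6-phosphate into glycolysis, rose by 1.72 ± 0.48 and 1.91 ± 0.60 on the log2 scale at 1 h (edgeR adjusted p 0.017 and 0.0287). The isomerase CCRYP_006702 was lower by -1.08 ± 0.28 and the phosphoglucomutase CCRYP_006808 by -0.96 ± 0.24 (edgeR adjusted p 0.0104 and 0.0093). Both were already at -0.81 and -0.69 against the control at 0 min, without a call. In 30 min and 1 h against 8 h and 10 h they were lower by -0.48 ± 0.15 and -0.61 ± 0.13 (edgeR adjusted p 0.0141 and 0.000751). Beta-glucanase CCRYP_016563 was higher than the control by 1.66 ± 0.43 at 10 h (edgeR adjusted p 0.0215). At 15 min its value was 2.03 ± 0.45 without a call (edgeR adjusted p 0.0684). From 15 to 30 min the log2 difference was -1.58 ± 0.32 (edgeR adjusted p 0.00119). This gene had 785 counts in total over the 16 columns. CCRYP_006702 and CCRYP_006808 were chosen after their values had been seen.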

How the data were processed

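RNA was sequenced from 27 labelled samples, 3 in each of 9 groups. The authors deposited raw counts per gene, made with STAR 2.7.3a and HTSeq 0.11.3 per the submitters' processing notes. Summary rows, 16.0% to 34.1% of reads in the columns used and nearly all of them reads aligned in several places, entered neither library sizes nor tests. The strand setting, build and gene annotation behind the counts were not given in sources used here, and overlapping, antisense and near-identical genes are uncertain, and 49 members share their UniProt match with another member. No gene ID was found in the reference gene table (0 matches), so no sequence or coordinate is given. Columns matched to no sample numbered 0.

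Columns copied or averaged from others were left out, which left 16 columns with 7 residual degrees of freedom. Genes passing filterByExpr (minimum count 10, minimum total 15) entered a robust quasi-likelihood model in edgeR 4.0.16 after TMM scaling, with 1 coefficient per group, prior count 2 and 13 comparisons (limma 3.58.1 under R 4.3.3). Standard errors were derived from the F statistic. The common biological coefficient of variation was 14.2%. The method was tested on simulated data.

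Members and lists were chosen with earlier results of these data known. Enzyme roles, the comparisons of 30 min with 4 h and 4 h with 8 h, and isozymes shown beside the named genes were chosen after values were seen. The rule for named genes took, per list, up to 4 members with the largest called change and the most counted member called nowhere, plus the 3 highest and 3 lowest of the early against late contrast, 27 genes in all, and the 3 neighbours with the largest change. Alternatives were DESeq2 1.42.0, other scalings, no filter, all 27 columns, the replicate number as a block, 0 min as the baseline and leaving out each column.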

Additional observations from a re-analysis of the deposited data

How the results depend on the processing

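Counts of called members are given for the alternatives that moved them by over 1.5 times. With all 27 columns as deposited, copies included, 155 members differed among the groups, and those called against the control numbered 79 (0 min), 53 (15 min), 132 (30 min), 118 (1 h), 94 (2 h), 84 (4 h), 46 (8 h) and 89 (10 h), with 119 from 15 to 30 min and 62 from 4 h to 8 h. With the replicate number as a block 0 min had 1, 1 h had 23, 2 h had 26, 4 h had 28, 8 h had 1 and 10 h had 25. Columns of the same number correlated in their deviations from the group means at -0.163 to 0.357 (median 0.0554). Of 24 such pairs 8 were over 0.1, against 5 of 46 pairs of different numbers (median -0.0449). In groups with 2 columns the deviations mirror each other. The pairs thus repeat a smaller set of values with either sign and are not independent. The labels give no shared origin for a number and not every pair was over 0.1, so the block was kept as an alternative, but same-number pairs from 2 h on were all positive (0.264 and 0.357 between 8 h and 10 h), a hint of pairing from the data. Without the filter 0 min had 3, 15 min had 4, 2 h had 24 and 4 h had 32. DESeq2 gave 1 at 0 min and 2 at 15 min, and library size only 2 at 0 min and 9 at 10 h. With 0 min as the baseline 15 min had 4, 30 min had 25, 1 h had 29 and 10 h had 4. Leaving out 1 column gave 78 to 108 among the groups, and against the control 0 to 2 (0 min), 0 to 2 (15 min), 40 to 78 (30 min), 46 to 58 (1 h), 7 to 20 (2 h), 11 to 33 (4 h), 0 to 0 (8 h) and 4 to 27 (10 h). It gave 67 to 86 for 30 min and 1 h against 8 h and 10 h, 24 to 75 from 15 to 30 min, 56 to 88 from 30 min to 4 h and 8 to 21 from 4 h to 8 h. Groups with a single column could not lose it. Of the named members' values under these alternatives, 566 kept their side of the threshold, 14 lost it, 10 gained it and 0 changed sign. Most of these values came from fits without 1 column, often a column outside the comparison, so they tested the calls little. With 0 min as the baseline, 16 values kept their side and 5 lost it. The causes were not tested. Genes at a few counts, such as CCRYP_020254 and CCRYP_013935, are limited by depth.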

Other observations

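Members with consecutive gene IDs formed 6 pairs, and their positions in the genome are not given here. The pair CCRYP_018508 and CCRYP_018509, a pyruvate kinase and an enolase, rose together by 2.13 and 1.65 on the log2 scale at 1 h over the control. The GAPDH pair CCRYP_005174 and CCRYP_005175 did so by 2.78 and 1.69. The pair CCRYP_007283 and CCRYP_007284, an aldolase and a fructose bisphosphatase that catalyse neighbouring steps, differed at 1 h, with -1.23 and 1.72. Part of this was present at 0 min, with 620 and 24.0 CPM, against 885 and 9.96 in the control and 378 and 32.9 at 1 h. In 30 min and 1 h against 8 h and 10 h the log2 values were -0.63 and 0.72 (edgeR adjusted p 0.00502 and 0.00245). In the other pairs, CCRYP_009958 with CCRYP_009959, CCRYP_011089 with CCRYP_011090 and CCRYP_013883 with CCRYP_013884, no member was called at 1 h.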
